A study of Mus musculus with 8 samples.

Results

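The genes described here are 10 C-type lectin receptors of mouse macrophages: Clec4n, Clec4d, Clec4e, Clec7a, Clec10a, Clec12a, Clec4a1, Clec4a2, Clec4a3 and Mrc1. They were chosen by name, as the rows of a count table of 22165 genes whose Ensembl identifiers map to these symbols. All 10 passed the filter on low counts, which left 11079 genes for testing. Each gene was followed through 8 libraries of bone marrow-derived macrophages, cells grown from marrow for 7 days in medium with the growth factor M-CSF. The mice were C57BL/6, either wild type or Nrf2-/-, the latter bought from a commercial breeder, and no age is stated. The knockout removes NRF2, the transcription factor encoded by Nfe2l2 that drives antioxidant gene expression, in every cell of the animal. Cells of each genotype were left untreated or received 250 µM dimethyl itaconate (DI), an electrophilic ester of itaconate, for 12 h, with 2 libraries in each of the 4 groups. The labels spell the agent as demethyl itaconate in the treatment field and as dimethyl itaconate in the protocol.

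Whether libraries of the same group stem from different animals or cultures is not stated in the labels. The p-values therefore reflect the spread among these libraries alone, and that spread may be technical. Total counts ranged from 5554288 to 15680671 per library, and 12418 to 13481 genes had at least 1 count. Nfe2l2 had 2636 and 7022 counts in untreated and 1901 and 4469 in DI-treated wild-type libraries, against 230 and 488 in untreated and 634 and 869 in DI-treated knockout libraries. The tags counted may lie outside the deleted part, so these counts check the genotype only weakly. Nqo1, an NRF2 target, had 28 and 35 counts in untreated and 542 and 1138 in DI-treated wild-type libraries, but 0 in both untreated and 12 and 4 in DI-treated knockout libraries. The 10 macrophage markers examined were all present in every library. Their summed level was 5741 to 5868 CPM (counts scaled to a common library size) in untreated and 4874 to 5365 in DI-treated wild-type cells, and 6692 to 6838 and 4503 to 5031 in knockout cells. In bulk RNA such as this, fewer cells of a type and less RNA per cell cannot be told apart.

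C-type lectin receptors bind sugars, lipids or crystals through a shared fold and tell phagocytes about fungi, bacteria and dead cells. Dectin-2 (Clec4n), MCL (Clec4d) and Mincle (Clec4e) signal through the adaptor FcRγ, and Dectin-1 (Clec7a) through a motif in its own tail; all of these reach the kinase SYK and then CARD9 and NF-κB. MICL (Clec12a) and DCIR (Clec4a2) carry inhibitory tails that recruit phosphatases, whereas MGL1 (Clec10a) and the mannose receptor (Mrc1) are uptake receptors long used as markers of alternatively activated macrophages. Clec4a1 and Clec4a3 encode relatives of DCIR.

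Of the 10 genes, 8 lie on chromosome 6 in 2 neighbourhoods (GRCm38, GENCODE M21). The first holds, in order, Clec4a1 (122921848 to 122934619), Clec4a3 (122952515 to 122969875), Clec4a2 (123106428 to 123143999), Clec4n (123229843 to 123247021) and Clec4d (123262111 to 123275265) on the plus strand and Clec4e (123281789 to 123289870) on the minus strand. The second holds Clec12a (129342691 to 129365303, plus strand) and Clec7a (129461591 to 129472779, minus strand), the latter annotated as a polymorphic pseudogene in this release. Mrc1 lies on chromosome 2 (14229392 to 14332057) with the microRNA gene Mir511 inside it, and Clec10a on chromosome 11 (70156197 to 70170834), both on the plus strand. Clec4a2 overlaps the processed pseudogene Gm44132 on the same strand. In the last 500 bases of the transcript, where reads of this protocol start, Clec10a shared 24.68% of its 31-base words with its paralog Mgl2 and the other 9 genes shared none with any gene. How reads were divided between Clec10a and Mgl2 is therefore uncertain.

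RefSeq promoter windows of GRCm38.p6 were matched for 8 of the 10 genes; Clec4n and Clec10a were not matched. The 250 bases before the start are shown for Clec4d and Clec4e, neighbours that responded differently to DI, for Clec4a1, which lies in the same neighbourhood and fell, and for Clec7a, which was lower in knockout cells. They are written 5′ to 3′ in the direction of the gene, with motif matches in capitals.
Clec4d, chr6:123261857-123262106, plus strand: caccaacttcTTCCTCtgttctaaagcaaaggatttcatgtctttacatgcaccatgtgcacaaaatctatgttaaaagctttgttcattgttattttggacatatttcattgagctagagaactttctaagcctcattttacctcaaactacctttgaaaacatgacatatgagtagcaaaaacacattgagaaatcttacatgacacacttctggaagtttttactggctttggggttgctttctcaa
Clec4e, chr6:123289872-123290121, minus strand: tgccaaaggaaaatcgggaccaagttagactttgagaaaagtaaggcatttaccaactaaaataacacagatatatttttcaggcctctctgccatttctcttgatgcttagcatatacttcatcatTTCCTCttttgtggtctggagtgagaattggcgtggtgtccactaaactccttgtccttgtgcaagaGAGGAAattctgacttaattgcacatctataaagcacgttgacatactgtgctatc
Clec4a1, chr6:122921598-122921847, plus strand: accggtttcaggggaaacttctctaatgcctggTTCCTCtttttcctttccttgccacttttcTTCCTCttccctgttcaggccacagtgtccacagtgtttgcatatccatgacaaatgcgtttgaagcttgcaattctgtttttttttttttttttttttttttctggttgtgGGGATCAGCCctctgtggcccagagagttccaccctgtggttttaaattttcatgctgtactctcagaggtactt
Clec7a, chr6:129472780-129473029, minus strand: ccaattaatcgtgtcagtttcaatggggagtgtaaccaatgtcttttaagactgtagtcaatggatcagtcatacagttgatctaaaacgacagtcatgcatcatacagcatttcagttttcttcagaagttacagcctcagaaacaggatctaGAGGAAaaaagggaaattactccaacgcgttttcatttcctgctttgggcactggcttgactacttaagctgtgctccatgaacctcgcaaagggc
Capitals mark GAGGAA, the core bound by the macrophage factor PU.1, on either strand (TTCCTC on the other), and in Clec4a1 also 1 match to GGGA and CC separated by 4 bases, a pattern with the spacing of NF-κB sites. GAGGAA begins 240 bases before the start of Clec4d, 123 and 56 bases before that of Clec4e, 217 and 187 bases before that of Clec4a1 and 96 bases before that of Clec7a. It occurs in 23.25% of the 32851 promoter windows of this length, and the NF-κB-spaced pattern in 17.63%. The core of the antioxidant response element, TGACNNNGC, occurs in 10.16% of windows and in none of those matched for the 8 genes. The AP-1 pattern TGANTCA (6.75% of windows) was found for Clec12a only, and CACGTG (6.02%) for none. Both strands were searched, and no pattern match overlapped another in the windows shown. A match is a description of the letters, and a window without one says only that the letters are not there.

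DI changed these receptors in opposite directions, and of the 10 Clec4n, the Dectin-2 gene, differed most between genotypes in its response. It rose 13.2-fold with DI in wild-type cells and was 25.6-fold lower in DI-treated knockout than in DI-treated wild-type cells. A gene was called when its adjusted p from edgeR's quasi-likelihood test (Benjamini-Hochberg over 11079 genes) was under 0.05. In wild-type cells DI raised 3 of the 10 (Clec4n, Clec4d, Clec10a; 6.51% of all genes tested rose) and lowered 4 (Clec12a, Clec4a1, Clec4a3, Mrc1; 8.68% of all genes fell). In knockout cells 1 rose (Clec4d; background 4.49%) and 3 fell (Clec4a1, Clec4a2, Clec4a3; background 4%). The response itself differed between genotypes, by the interaction of genotype and DI, for Clec12a, with a higher value in knockout cells (1 gene; background 4.96%), and for Clec4n, with a lower one (1 gene; background 2.59%).

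Between genotypes, no receptor was higher in untreated knockout cells (background 0.0812%), with 0 also before adjustment (p under 0.05) and 0 by DESeq2, and 2 were lower (Clec4d and Clec7a; background 0.524%). With DI, 2 were higher in knockout cells (Clec12a and Mrc1; background 11.4%) and 4 lower (Clec4n, Clec4d, Clec7a and Clec10a; background 9.74%). The median log2 change of the 10 genes was -0.66 with DI in wild-type and -0.13 in knockout cells, against -0.02 and 0.00 over all genes tested. These comparisons share libraries: the same untreated and DI-treated groups enter several of them. Below, the order of libraries is given as a description, because the share of all genes whose groups lie apart was not computed. Without wild-type DI library 1 the count lowered in wild-type cells was 2. Without either untreated knockout library no receptor rose in knockout cells. The interaction count of higher genes was 0 without wild-type untreated library 2, either untreated knockout library or knockout DI library 1, and that of lower genes was 2 without untreated knockout library 2. The count lower in untreated knockout cells was 0 without untreated knockout library 1 and 1 without any other untreated library.

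**Figure D1:**
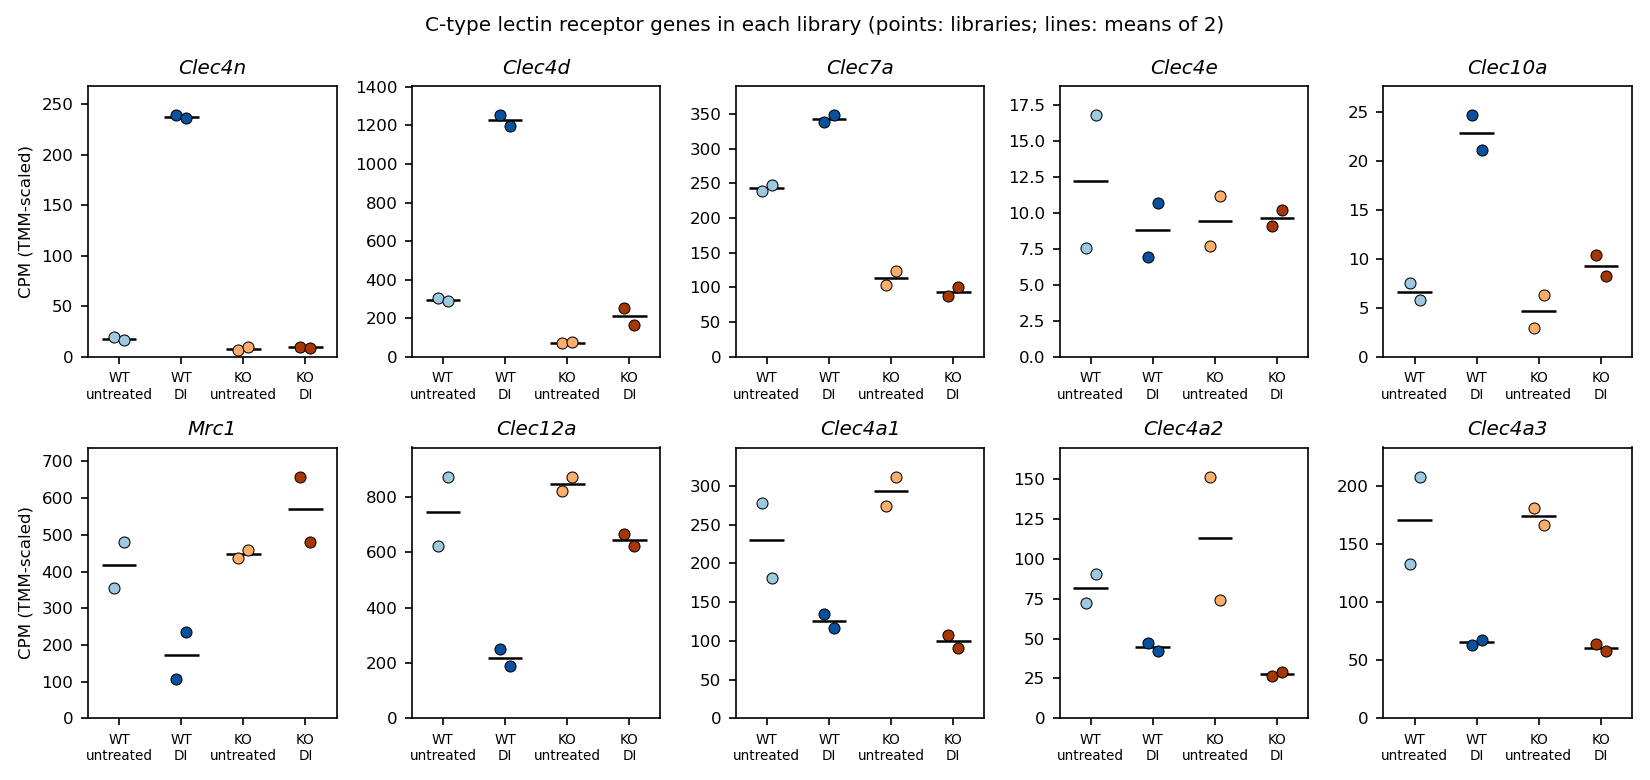
Level of each receptor gene in CPM (TMM-scaled, linear axes starting at 0) in the 8 libraries; points are libraries and lines are means of 2. In wild-type DI cells Clec4n stands at 239 and 236 CPM against 6.82 to 19.7 CPM in the other 6 libraries, whereas the Clec4a genes are lower with DI in both genotypes.

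Among the FcRγ-coupled receptors, Clec4n (ENSMUSG00000023349), the gene of the mannan receptor Dectin-2, had 19.7 and 16.2 CPM in untreated and 239 and 236 CPM in DI-treated wild-type libraries. In knockout cells it had 6.82 and 9.33 CPM untreated and 9.50 and 9.02 CPM with DI. The wild-type DI libraries thus stood far above the other 6, and the untreated and treated knockout libraries overlapped. The log2 change with DI was 3.72 ± 0.25 (SE) in wild-type cells (edgeR adjusted p = 3.30e-06), rank 34 from the highest of 11079 genes. In knockout cells it was 0.18 ± 0.25 (edgeR adjusted p = 0.693). The difference of these responses, knockout minus wild type, was -3.54 ± 0.35 (edgeR adjusted p = 0.000283), rank 43 from the lowest. Clec4n was also lower in both untreated knockout libraries than in both untreated wild-type libraries, by -1.14 ± 0.25 on the log2 scale, which did not pass edgeR (adjusted p = 0.0697) but passed DESeq2 (adjusted p = 0.0122). With DI the difference between genotypes was -4.68 ± 0.26 (edgeR adjusted p = 5.82e-07). The wild-type response, the interaction and the difference with DI stayed called under all alternatives run, which left out each library in turn among other settings, with log2 values of 3.59 to 3.87, -3.76 to -3.28 and -4.72 to -4.47.

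Clec4d (ENSMUSG00000030144) has an annotated interval that begins 32.3 kb after that of Clec4n and encodes MCL, a receptor for mycobacterial glycolipids that pairs with Mincle. It had 303 and 291 CPM in untreated and 1254 and 1197 CPM in DI-treated wild-type libraries, and 69.1 and 75.2 CPM in untreated and 251 and 167 CPM in DI-treated knockout libraries. DI-treated libraries were higher in both genotypes, and knockout libraries lower under both treatments. The rise with DI was 4.12-fold in wild-type cells (log2 2.04 ± 0.24, edgeR adjusted p = 0.000200) and 2.90-fold in knockout cells (1.53 ± 0.24, edgeR adjusted p = 0.00489). The interaction was -0.51 ± 0.33 (edgeR adjusted p = 0.346), so a difference between these responses was not detected. Knockout cells held 4.11-fold less Clec4d than wild-type cells when untreated (log2 -2.04 ± 0.24, edgeR adjusted p = 0.00195), rank 93 from the lowest. With DI they held 5.86-fold less (-2.55 ± 0.25, edgeR adjusted p = 3.07e-05). Even DI-treated knockout libraries thus stood below untreated wild-type libraries. Without untreated knockout library 1 the edgeR adjusted p was 0.0713 for the rise in knockout cells and 0.0884 for the untreated difference, and without untreated knockout library 2 it was 0.0531 for the rise.

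Clec4e (ENSMUSG00000030142), which encodes Mincle, has an interval that begins 51.9 kb after that of Clec4n and did not pass any of the 5 tests. Its levels were 7.60 and 16.8 CPM in untreated and 6.91 and 10.7 CPM in DI-treated wild-type libraries, and 7.70 and 11.2 CPM in untreated and 9.07 and 10.2 CPM in DI-treated knockout libraries. All groups overlapped, and the 2 untreated wild-type libraries differed from each other more than any group means did. The log2 change with DI was -0.46 ± 0.37 in wild-type cells (edgeR adjusted p = 0.435) and 0.02 ± 0.38 in knockout cells (edgeR adjusted p = 0.984). These standard errors are wide, so a change of moderate size in Clec4e was not detectable here.

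Markers of neutrophils, cells that also carry these receptors, were followed as a list of 12 genes. Their summed level was 482 to 531 CPM in untreated and 631 to 799 CPM in DI-treated wild-type cells, and 301 to 345 and 293 to 344 CPM in knockout cells, an order of groups like that of Clec4n. One gene of the list, the collagenase Mmp8, made up the rise: its mean was 122 CPM in untreated and 425 CPM in DI-treated wild-type cells (log2 1.80, edgeR adjusted p = 0.000463). The other 11 markers summed to 379 to 391 and 255 to 326 CPM in wild-type and 270.0 to 312 and 249 to 308 CPM in knockout cells, lower with DI in wild-type cells. The defining marker Ly6g had means of 0.262 to 0.608 CPM. The part of neutrophil RNA in the levels of Clec4n and Clec4d was not tested.

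Clec7a (ENSMUSG00000079293) encodes Dectin-1, the receptor for fungal β-glucan. It had 239 and 248 CPM in untreated and 338 and 349 CPM in DI-treated wild-type libraries, and 104 and 124 CPM in untreated and 87.7 and 100.4 CPM in DI-treated knockout libraries. The 4 knockout libraries lay below the 4 wild-type libraries. Knockout cells held 2.14-fold less Clec7a when untreated (log2 -1.10 ± 0.21, edgeR adjusted p = 0.0418) and 3.65-fold less with DI (-1.87 ± 0.22, edgeR adjusted p = 0.000128). The untreated call was lost without any 1 of the 4 untreated libraries, with edgeR adjusted p of 0.114 and 0.151 without wild-type library 1 or 2 and 0.450 and 0.218 without knockout library 1 or 2, while the log2 value stayed between -1.23 and -0.97. The change with DI was 0.50 ± 0.21 in wild-type cells (edgeR adjusted p = 0.130) and -0.28 ± 0.21 in knockout cells (edgeR adjusted p = 0.435), with an interaction of -0.77 ± 0.30 (edgeR adjusted p = 0.125). An alternative fit removed the trend of each library with A-rich coding sequence, where an oligo-dT primer can anneal. In it the wild-type change was 0.72 (edgeR adjusted p = 0.0389), the interaction -1.18 (edgeR adjusted p = 0.0404), and the untreated difference did not pass (edgeR adjusted p = 0.0732). The longest such stretch of Clec7a had 11 A in 15 coding bases.

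The uptake receptors Clec10a and Mrc1 moved in opposite directions in wild-type cells. Clec10a (ENSMUSG00000000318), which encodes the galactose-binding MGL1, had 7.51 and 5.76 CPM in untreated and 24.7 and 21.1 CPM in DI-treated wild-type libraries. Knockout libraries held 2.97 and 6.30 CPM untreated and 10.4 and 8.21 CPM with DI. DI-treated libraries were higher in both genotypes, although the depth behind the low values was small, at 17 and 58 counts in the untreated knockout libraries. The rise was 3.45-fold in wild-type cells (log2 1.79 ± 0.32, edgeR adjusted p = 0.00287), and the knockout change of 0.95 ± 0.34 did not pass (edgeR adjusted p = 0.105). An interaction was not detected (-0.84 ± 0.47, edgeR adjusted p = 0.270). With DI knockout cells held 2.46-fold less (-1.30 ± 0.31, edgeR adjusted p = 0.0129), a call lost without wild-type DI library 1 (adjusted p = 0.0587) or knockout DI library 2 (adjusted p = 0.0698). Its paralog Mgl2, with which it shares sequence, differed by 0.23 in wild-type and -0.89 in knockout cells and passed in neither (edgeR adjusted p = 0.859 and 0.362).

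Mrc1 (ENSMUSG00000026712), the mannose receptor CD206, had 355 and 479.7 CPM in untreated and 107 and 237 CPM in DI-treated wild-type libraries. It had 438 and 458 CPM in untreated and 659 and 479 CPM in DI-treated knockout libraries. Both wild-type DI libraries were below all others, and within each genotype the DI-treated libraries were far apart. The wild-type fall was 2.43-fold (log2 -1.28 ± 0.33, edgeR adjusted p = 0.0227), and it lost its call without wild-type DI library 1 (-0.78, adjusted p = 0.118) or wild-type untreated library 2 (-1.05, adjusted p = 0.151). The knockout change was 0.35 ± 0.33 (edgeR adjusted p = 0.539). The interaction was 1.63 ± 0.47 with edgeR adjusted p = 0.0530, just above the threshold, and passed DESeq2 (adjusted p = 0.0103) and edgeR without wild-type DI library 2 (2.30, adjusted p = 0.00616). With DI, knockout cells held 3.31-fold more Mrc1 than wild-type cells (1.73 ± 0.34, edgeR adjusted p = 0.00406), a call kept in every alternative run with values of 1.24 to 2.40.

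The inhibitory receptor gene Clec12a and the 3 Clec4a genes had lower levels with DI in both genotypes, and for Clec12a the wild-type fall passed the test while the knockout change did not. Clec12a (ENSMUSG00000053063) encodes MICL, an inhibitory receptor for uric acid crystals. It had 621 and 870.2 CPM in untreated and 249.9 and 188 CPM in DI-treated wild-type libraries, and 819.9 and 874 CPM in untreated and 667 and 623 CPM in DI-treated knockout libraries. The wild-type DI libraries were the lowest, and the knockout DI libraries lay below both untreated knockout libraries. The fall was 3.41-fold in wild-type cells (log2 -1.77 ± 0.25, edgeR adjusted p = 0.000573), and the knockout change was -0.39 ± 0.24 (edgeR adjusted p = 0.319). The interaction was 1.37 ± 0.34 (edgeR adjusted p = 0.0301). With DI knockout cells held 2.95-fold more Clec12a (1.56 ± 0.24, edgeR adjusted p = 0.00108), and untreated genotypes overlapped (0.18 ± 0.24, edgeR adjusted p = 0.862). The interaction lost its call without wild-type untreated library 2 (adjusted p = 0.121), wild-type DI library 2 (1.17, 0.0614), untreated knockout library 1 (1.31, 0.136) or 2 (1.43, 0.109) or knockout DI library 1 (1.33, 0.0777). It fell to 0.80 with adjusted p = 0.172 with the A-rich trend removed, and Clec12a has up to 12 A in 15 coding bases, as does Mrc1; the other 8 genes have 8 to 11. The wild-type fall and the difference with DI were called in every alternative run.

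The 3 Clec4a genes had lower levels with DI in both genotypes. Clec4a3 (ENSMUSG00000043832) had 133 and 208 CPM in untreated and 63.6 and 67.8 CPM in DI-treated wild-type libraries, and 181 and 167 CPM in untreated and 63.9 and 58.2 CPM in DI-treated knockout libraries. It fell by 1.38 ± 0.25 on the log2 scale in wild-type cells (edgeR adjusted p = 0.00306) and by 1.51 ± 0.25 in knockout cells (edgeR adjusted p = 0.00577). A difference between these responses was not detected, with an interaction of -0.13 ± 0.34 (edgeR adjusted p = 0.840). Clec4a1 (ENSMUSG00000049037) had 278 and 182 CPM in untreated and 135 and 117 CPM in DI-treated wild-type libraries, and 274 and 312 CPM in untreated and 107 and 91.1 CPM in DI-treated knockout libraries. It fell by 0.87 ± 0.25 in wild-type cells (edgeR adjusted p = 0.0347) and by 1.56 ± 0.25 in knockout cells (edgeR adjusted p = 0.00545). The untreated wild-type libraries of Clec4a1 were far apart, and without wild-type untreated library 1 its wild-type change was -0.53 (edgeR adjusted p = 0.229). That call was also lost without either wild-type DI library (adjusted p = 0.0796 and 0.144) or either untreated knockout library (adjusted p = 0.0647 and 0.0564), and in a fit of only the groups compared (-0.86, adjusted p = 0.0633).

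Clec4a2 (ENSMUSG00000030148), the DCIR gene, had 72.6 and 90.3 CPM in untreated and 47.4 and 42.2 CPM in DI-treated wild-type libraries. Knockout libraries held 152 and 74.2 CPM untreated and 26.5 and 28.8 CPM with DI, so the untreated knockout libraries were far apart. The fall in knockout cells was 4.08-fold (log2 -2.03 ± 0.31, edgeR adjusted p = 0.00448) and stayed called without either of them, at -2.45 to -1.42 over the alternatives. In wild-type cells the change of -0.86 ± 0.30 did not pass (edgeR adjusted p = 0.0708), though it passed DESeq2 (adjusted p = 0.0459) and edgeR without untreated knockout library 1 or 2 (adjusted p = 0.0435 and 0.0373). An interaction was not detected (-1.16 ± 0.42, edgeR adjusted p = 0.108) except without untreated knockout library 2 (-1.59, adjusted p = 0.0485) and with no filter on low counts (adjusted p = 0.0258). In knockout cells the falls of Clec4a1 and Clec4a3 had edgeR adjusted p = 0.0519 and 0.0533 without untreated knockout library 2 and 1, respectively. None of the 3 genes passed the test between genotypes in untreated cells (edgeR adjusted p = 0.690, 0.644 and 0.989 for Clec4a1, Clec4a2 and Clec4a3) or with DI (0.344, 0.122 and 0.787).

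Markers of monocytes, the less mature cells from which macrophages grow, were lower in the same libraries. The 8 markers summed to 445 to 584 CPM in untreated and 132 to 162 CPM in DI-treated wild-type cells, and to 661 to 728 and 263 to 278 CPM in knockout cells. Of 7 that could be tested, 3 fell in wild-type and 4 in knockout cells, against 8.68% and 4% of all genes. The fall was not particular to this list. Of the 10 macrophage markers, 5 were called lower with DI in wild-type and 3 in knockout cells, and 0 higher in either. Among those 10, 3 had a positive change in wild-type and 0 in knockout cells. The chemokine receptor gene Ccr2 carried most of the monocyte sum, with means of 380.4 and 77.4 CPM in wild-type and 541 and 203 CPM in knockout cells. With DI, 1 of the 7 tested monocyte markers was higher in knockout than in wild-type cells and 4 were lower. The shares of all genes were 11.4% and 9.74%, and the list median was -1.05 on the log2 scale. Dendritic cell markers, 11 genes, summed to between 12.1 and 22.4 CPM in every library. Lymphocyte markers summed to at most 2.52 CPM, mast cell and basophil markers to at most 4.98 CPM and stromal and erythroid markers to at most 53.3 CPM, with Lum and Hbb-bs among those at 0 throughout. The part of monocyte content in the falls of Clec12a and the Clec4a genes was not tested.

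**Figure D2:**
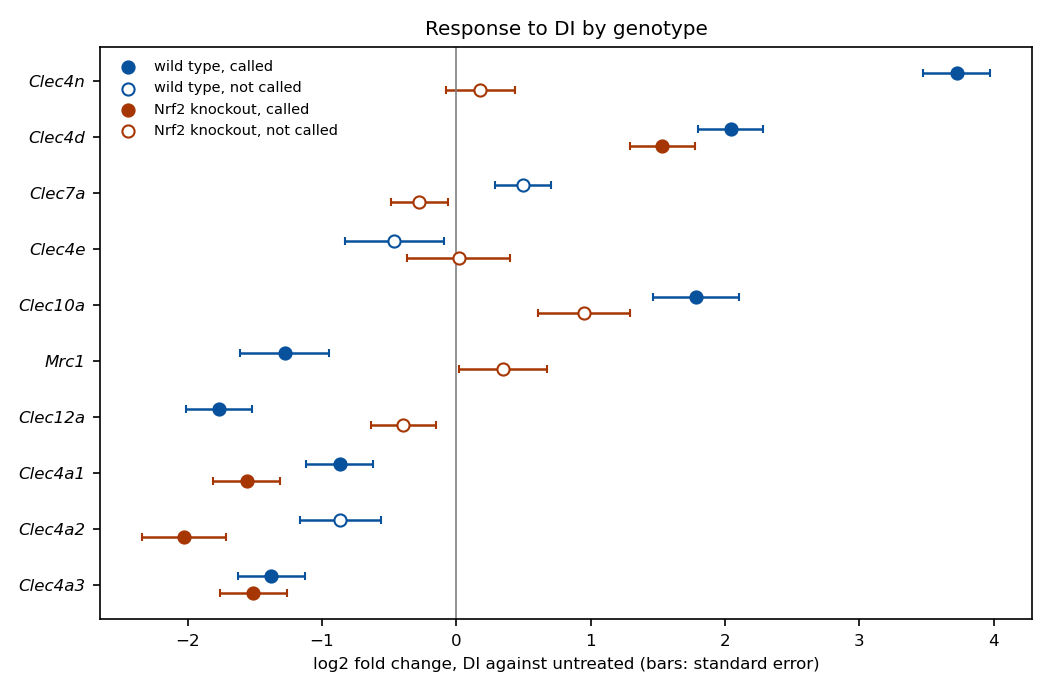
Log2 fold change of each receptor gene with DI in wild-type and Nrf2-/- cells; points are edgeR estimates from 2 libraries per group, bars are standard errors and filled points passed the test. Clec4n stands at 3.72 in wild-type and 0.18 in knockout cells, whereas Clec4a3 stands at -1.38 and -1.51.

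**Figure D3:**
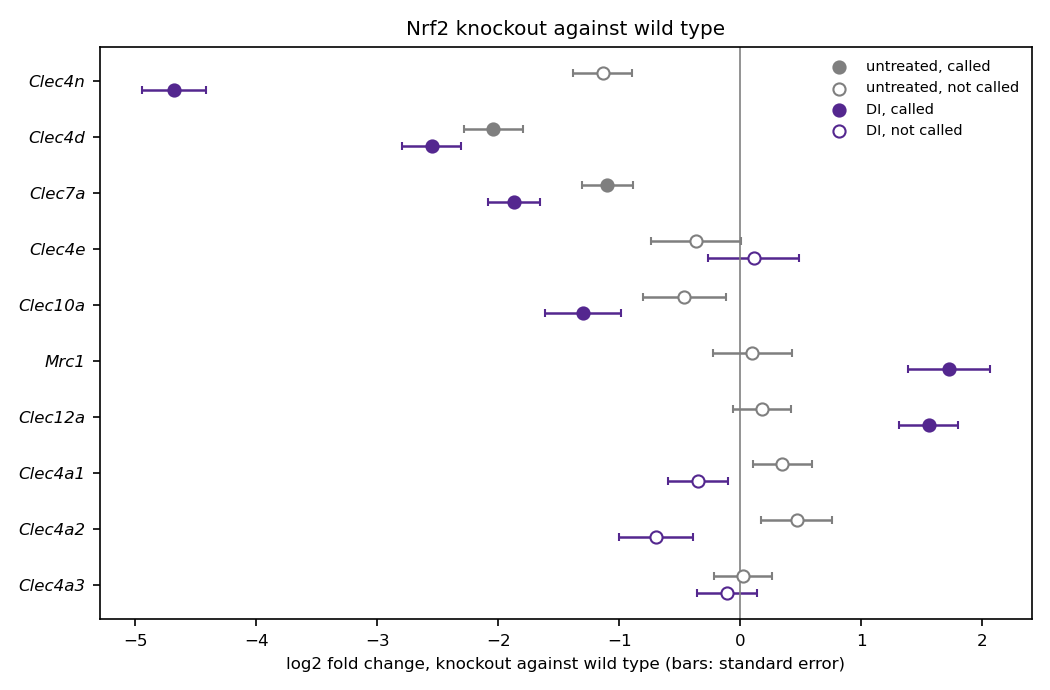
Log2 fold change of knockout against wild-type cells for each receptor gene, untreated and with DI; bars are standard errors and filled points passed the edgeR test. Clec4d is lower in knockout cells under both treatments, at -2.04 and -2.55, and Clec12a and Mrc1 stand at 0.18 and 0.10 untreated and at 1.56 and 1.73 with DI.

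Within 300 kb of the 6 Clec4 receptors the annotation places 12 further genes of the count table, of which 3 had no counts and 6 were tested. In wild-type DI cells 0 of these 6 were called by edgeR or by DESeq2, with 1 lower at an unadjusted p under 0.05, against 6.51% of all genes tested that rose and 8.68% that fell. In knockout cells 1 gene, Necap1, fell by 0.89 (edgeR adjusted p = 0.0307; 4% of all genes fell). The call of Necap1, an endocytosis gene, was lost without either untreated knockout library, without knockout DI library 1 and with the A-rich trend removed. The nearest tested relative, Clec4b1, differed by -1.94 in wild-type cells (edgeR adjusted p = 0.0609). The intervals of Clec4n, Clec4d and Clec4e begin within 51.9 kb of each other and had log2 changes of 3.72, 2.04 and -0.46 in wild-type cells.

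Around Clec12a and Clec7a the annotation places 21 further genes of the count table, of which 6 had no counts and 5 were tested. By edgeR, 1 of the 5 rose with DI in wild-type and 1 in knockout cells (6.51% and 4.49% of all genes). In both genotypes 0 fell by edgeR (8.68% and 4% of all genes) and 1 by DESeq2. The interaction called 1 higher (4.96% of all genes). Gabarapl1, an autophagy gene, rose by 1.03 in wild-type DI cells (edgeR adjusted p = 0.00899; 0.0565 without wild-type untreated library 1). Clec2d, which encodes a ligand of natural killer cell receptors, rose by 1.09 in knockout cells (edgeR adjusted p = 0.0302) and had an interaction of 1.65 (edgeR adjusted p = 0.0234). The rise was not called without either untreated knockout library or knockout DI library 1, nor the interaction without wild-type untreated library 2, wild-type DI library 1, untreated knockout library 1 or knockout DI library 1. With DI, 3 of the 5 were higher in knockout than in wild-type cells: Clec2d (1.34), Clec9a (2.06) and Clec1b (1.69). Gabarapl1 (-0.90) was lower. Of all genes, 11.4% were higher and 9.74% lower in that comparison. Cd69, the remaining tested gene, differed with DI by -1.77 in wild-type and -1.63 in knockout cells (edgeR adjusted p = 0.0559 and 0.0654). Its knockout change passed DESeq2 (adjusted p = 0.0367). Clec1b and Clec9a had 116 and 115 counts over all libraries, and leaving out any 1 library ended the call of Clec1b, while that of Clec9a ended without either wild-type untreated library, either wild-type DI library or knockout DI library 1. The call of Gabarapl1 ended without knockout DI library 1.

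**Figure D4:**
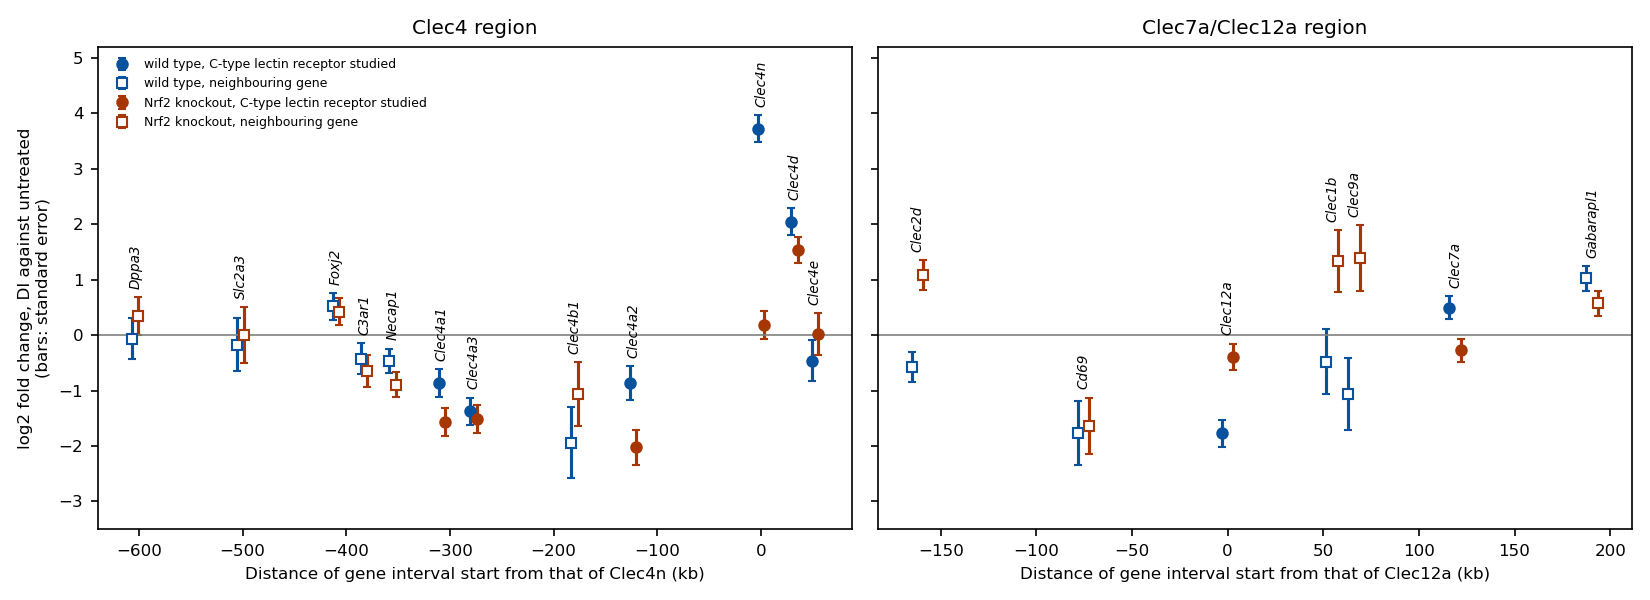
Log2 fold change with DI (bars are standard errors) of receptor genes (filled circles) and other tested genes (open squares) against the distance of the lower end of their annotated interval from that of Clec4n (left) or Clec12a (right) in kb. Clec4n and Clec4d stand at 3.72 and 2.04 in wild-type cells, while the tested neighbours to their left lie between -1.94 and 0.52.

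Other genes were ranked by the Pearson correlation of their log2 CPM with each receptor over the 8 libraries, which fall into 4 groups and share their depth, so the values are descriptions only. Nearest to Clec4n were Pgd (r = 0.998), an enzyme of the pentose phosphate pathway, and the peroxiredoxin gene Prdx1 (r = 0.996). Nearest to Clec4d were Cgnl1 (r = 0.994) and Fabp4 (r = 0.990), a fatty acid binding protein, and to Clec7a Gpnmb (r = 0.983) and Saa3 (r = 0.980). For Clec10a they were Fam20c (r = 0.982) and Dnajb4 (r = 0.979). For the genes that fell in wild-type cells, they were Pou2f2 (r = 0.991) and Tnip3 (r = 0.990) for Clec12a, Top2a (r = 0.992) and Slc9a9 (r = 0.987) for Mrc1, Cnp (r = 0.984) and Trim34a (r = 0.975) for Clec4a1, and Gbp7 (r = 0.995) and Ehd4 (r = 0.977) for Clec4a3. Clec4a2 was nearest to Med11 (r = 0.982) and Dmac2 (r = 0.955). Clec4e was nearest to Ccdc122 (r = 0.919) and Mlx (r = 0.892).

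The genes of signalling downstream of the receptors were examined as lists. Of 36 genes of the FcRγ, SYK, CARD9 and NF-κB pathway, all tested, 4 rose and 4 fell with DI in wild-type cells (6.51% and 8.68% of all genes), with a list median of 0.09 against -0.02 over all genes. In knockout cells 2 fell and 0 rose (4% and 4.49% of all genes), with 4 higher at an unadjusted p under 0.05 and 1 higher by DESeq2. The adaptor gene Fcer1g, needed by Clec4n, Clec4d and Clec4e at the cell surface, differed by -0.16 in wild-type (edgeR adjusted p = 0.684) and -0.77 in knockout cells (edgeR adjusted p = 0.0610). The knockout change of Fcer1g passed DESeq2 and edgeR without either wild-type DI library or knockout DI library 2. Syk differed by 0.49 and 0.34 (edgeR adjusted p = 0.133 and 0.336). In wild-type cells the calcium-responsive factor gene Nfatc2 fell by 1.58 ± 0.26 (edgeR adjusted p = 0.00174) and the exchange factor gene Vav1 fell by 1.29 ± 0.24 (edgeR adjusted p = 0.00412). In knockout cells Nfatc2 fell by 1.21 ± 0.25 (edgeR adjusted p = 0.0155), a call that ended without either untreated knockout library or knockout DI library 1. The wild-type count of rising genes was 1 without wild-type DI library 1 and without either untreated wild-type library, that of falling genes was 2 without wild-type untreated library 2, and with the A-rich trend removed 2 rose. The knockout count of falling genes was 4 without either wild-type DI library, 1 without either wild-type untreated library and 0 without either untreated knockout library or knockout DI library 1; 1 gene rose there without knockout DI library 2. DESeq2 gave 4 falling genes in knockout cells.

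A list of genes that restrain signalling by these receptors held phosphatases and ubiquitin ligases, and also Cyld and Rubcn. Of 11 tested, 3 rose and 1 fell in wild-type cells and 2 rose in knockout cells, where 0 fell (1 at an unadjusted p under 0.05, 0 by DESeq2). Of all genes tested, 6.51% rose and 8.68% fell in wild-type cells and 4.49% rose and 4% fell in knockout cells. The MAP kinase phosphatase genes Dusp5 and Dusp1 rose in both genotypes, by 1.76 ± 0.25 and 1.34 ± 0.21 in wild-type and 1.03 ± 0.25 and 1.18 ± 0.21 in knockout cells. Neither knockout call held without untreated knockout library 1 or 2, and that of Dusp5 also ended without knockout DI library 1. Tnfaip3 rose by 1.62 ± 0.34 in wild-type cells (edgeR adjusted p = 0.00761) and differed by -0.69 in knockout cells (edgeR adjusted p = 0.230). It alone of the 11 had an interaction called by edgeR (-2.31 ± 0.48, adjusted p = 0.0156), where 2.59% of all genes were lower. That interaction was not called without wild-type untreated library 2, wild-type DI library 1 or untreated knockout library 2. Ptpn6, which encodes the phosphatase SHP-1 recruited by inhibitory lectin receptors, fell by 1.85 ± 0.31 in wild-type cells (edgeR adjusted p = 0.00182) and differed by -0.42 in knockout cells (edgeR adjusted p = 0.403). Its interaction of 1.44 did not pass (edgeR adjusted p = 0.0584), but it passed DESeq2 (adjusted p = 0.0154) and edgeR with no filter on low counts (adjusted p = 0.00235) or without untreated knockout library 1 (1.95, adjusted p = 0.0402).

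Of 14 tested cytokine and early genes that these receptors induce, 3 rose and 4 fell in wild-type cells (6.51% and 8.68% of all genes) and 3 rose and 1 fell in knockout cells (4.49% and 4%). The cyclooxygenase gene Ptgs2 rose by 2.58 ± 0.25 in wild-type cells (edgeR adjusted p = 4.42e-05), and the chemokine gene Cxcl2 rose by 2.40 ± 0.34 and the nuclear receptor gene Nr4a1 fell by 2.43 ± 0.35 in knockout cells. Egr2, an early gene of CARD9 and calcineurin signalling, rose by 1.47 ± 0.38 and 1.74 ± 0.42, and Il12b, a subunit of interleukin-12, fell in wild-type cells (edgeR adjusted p = 0.0205). The wild-type call of Egr2 ended without any 1 wild-type library, its knockout call without either untreated knockout library or knockout DI library 1, and that of Il12b without wild-type untreated library 2 or either wild-type DI library. The wild-type count of rising genes was 1 without wild-type untreated library 1 or either wild-type DI library and with the A-rich trend removed. That of falling genes was 0 without wild-type DI library 2 or untreated library 2, 1 without wild-type DI library 1, and 2 without wild-type untreated library 1 or untreated knockout library 1. The knockout count of rising genes was 1 without either untreated knockout library or knockout DI library 1 and 5 without either wild-type DI library.

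Among 25 tested transcription factors of macrophages and of alternative activation, 4 rose and 3 fell in wild-type cells (background 6.51% and 8.68%) and 3 rose and 2 fell in knockout cells (background 4.49% and 4%). Maf fell by 2.29 ± 0.31 in wild-type cells, and Cebpb and Tfec rose by 1.48 ± 0.21 and 1.64 ± 0.25. In knockout cells Klf4 rose by 1.94 ± 0.31 and Bhlhe40 by 1.43 ± 0.28, calls that ended without either untreated knockout library, and for Bhlhe40 also without knockout DI library 1. Spi1, the gene of PU.1, differed by -0.10 in wild-type (edgeR adjusted p = 0.818) and -0.26 in knockout cells (edgeR adjusted p = 0.561), and was named after its values were seen because its motif is shown above. The wild-type counts were 2 rising without either wild-type untreated library and 5 falling without either knockout DI library. The knockout counts of rising genes were 0 without either untreated knockout library and 1 without knockout DI library 1. Those of falling genes were 0 without untreated knockout library 1, without knockout DI library 1 and with the A-rich trend removed, and 1 without untreated knockout library 2 or either wild-type untreated library and with a replicate block.

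In a separate list of 13 genes of alternative activation, none passed the test of DI against untreated cells. Of 9 tested, 0 rose and 0 fell with DI in edgeR in either genotype, with 1 higher and 2 lower at an unadjusted p under 0.05 in wild-type cells, 0 in knockout cells and 0 by DESeq2. Tgm2 (-0.64 ± 0.21, edgeR adjusted p = 0.0645) and Arg1 (-0.94 ± 0.35, edgeR adjusted p = 0.0900) were nearest to the threshold in wild-type cells, and each passed in some alternatives, Tgm2 with the A-rich trend removed and Arg1 without wild-type untreated library 1 or with no filter. With DI 1 of the 9 was higher in knockout cells and 4 were lower (11.4% and 9.74% of all genes), or 2 lower without wild-type DI library 1 or knockout DI library 1.

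Of 16 tested genes among 40 other C-type lectin receptors, 1 rose and 4 fell in wild-type cells (6.51% and 8.68% of all genes) and 1 rose and 1 fell in knockout cells (4.49% and 4%). The phospholipase receptor gene Pla2r1 fell in both, with log2 changes of -2.57 ± 0.31 and -2.41 ± 0.34. Cd72, an inhibitory lectin known from B cells, fell by 1.39 ± 0.22 in wild-type cells. Clec5a, a receptor that signals through DAP12, fell by 1.99 ± 0.40 in wild-type cells (edgeR adjusted p = 0.00557; 0.0673 without wild-type DI library 2) and differed by 0.90 in knockout cells (edgeR adjusted p = 0.149), with an interaction that passed (edgeR adjusted p = 0.00934; 0.0631 without untreated knockout library 2). With DI 5 of the 16 were higher and 2 lower in knockout cells (background 11.4% and 9.74%). The wild-type count of rising genes was 0 without wild-type untreated library 2 and that of falling genes 2 without wild-type DI library 2. In knockout cells 0 rose without either untreated knockout library or knockout DI library 1, and 2 fell without either wild-type DI library. With DI 3 were higher without either wild-type untreated library, wild-type DI library 2 or knockout DI library 1, and 1 was lower without either wild-type DI library, either untreated knockout library or knockout DI library 2. As a reference for the genotype, all 10 NRF2 targets of a list rose with DI in wild-type cells (background 6.51%). In knockout cells 6 rose (background 4.49%), and fewer without either untreated knockout library or knockout DI library 1. The interaction called 7 lower (background 2.59%). Between genotypes, 7 were lower in untreated knockout cells (background 0.524%), and fewer without any 1 untreated library. With DI all 10 were lower in knockout cells (background 9.74%), with a list median of -4.33 on the log2 scale.

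**Figure D5:**
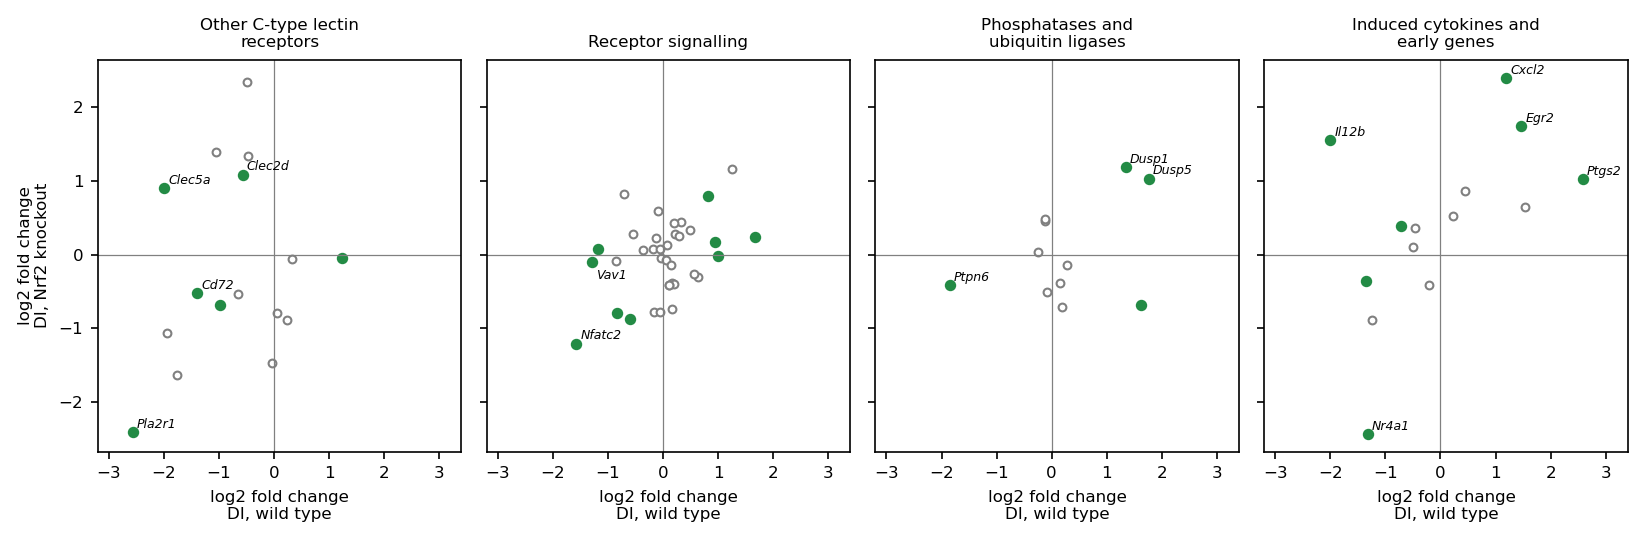
Log2 fold change with DI in Nrf2-/- cells against that in wild-type cells for 4 gene lists. Each point is a tested gene, and filled points passed the edgeR test in at least 1 genotype. Names are on those described in the text other than Tnfaip3. Pla2r1 stands at -2.57 and -2.41 and Dusp1 at 1.34 and 1.18, low and high in both genotypes, while Clec5a stands at -1.99 in wild-type and 0.90 in knockout cells.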

How the data were processed

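Per the labels' protocols, poly(A) RNA was reverse transcribed with a barcoded oligo-dT primer, pooled, ligated to an adaptor and amplified by PCR without molecular identifiers, which gives strand-specific reads near transcript 3′ ends. Levels of different genes are therefore not compared. The authors deposited 1 table of raw read counts, not normalized, with a row for each Ensembl gene. STAR, HTSeq, DESeq2 and the build mm10 appear in the submitters' processing notes, without versions. Counting settings are not given in the sources used here.

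Identifiers were matched to GENCODE M21 for 21745 of 22165 genes. Genes were filtered with filterByExpr (minimum count 10), scaled by TMM and tested with edgeR 4.0.16 (R 4.3.3, robust quasi-likelihood F-test), fitting all 8 libraries together with the 4 group means. Standard errors were derived from this test, as the absolute log2 change divided by the square root of its F statistic. Alternatives were DESeq2 1.42.0, RLE size factors, no filter, only the groups compared, a replicate block, removal of the trend for A-rich coding sequence (most A in 15 coding bases), and leaving out each library. The steps were also run on simulated data, with changes put only into the wild-type DI group and not into genes of low level. That run did not check the interaction, and its outcome is not given here. Depth was 5554288 to 15680671 counts per library, and libraries of a group differed beyond counting error (chi-square per degree of freedom 15.2 to 45.3).

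The genes described, the lists and their tests were chosen with earlier results of these data known. Named genes were all receptors, up to 3 genes per list and DI comparison with the smallest p (some are not reported here), called neighbours within 300 kb, and the 2 genes most correlated with each receptor among those with a mean of at least 10 CPM. Spi1, Fcer1g, Syk, Clec4b1, Mmp8, Ccr2, Tnfaip3 and, in further comparisons, other listed genes were named after their values were seen. The marker sum without Mmp8 was also added after seeing the data.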

Additional observations from a re-analysis of the deposited data

Results flagged for a closer look

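Clec4n and Clec12a stand out because their response to DI differed between the genotypes in a direct test, the interaction of genotype and DI. For Clec4n the response in knockout cells was lower by 3.54 on the log2 scale than in wild-type cells (interaction -3.54 ± 0.35, edgeR adjusted p = 0.000283). All 13 alternatives run for this test called it, including those that left out each library. For Clec12a the interaction was 1.37 ± 0.34 (edgeR adjusted p = 0.0301), and 6 of 13 alternatives did not call it, with adjusted p up to 0.172.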

How the results depend on the processing

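Of 21 calls of the receptors over the 5 comparisons, 12 were kept under each of the alternatives run (6 settings, 5 for the interaction, for which the fit of only the groups compared was not run, and 8 fits without 1 library), and of 29 values not called 21 were called in none. No called value changed sign, and no setting moved the median of all genes by over 0.1. With no filter on low counts, 2 receptors rose with DI in knockout cells, and the interaction called 2 higher and 2 lower. It called 2 higher by DESeq2 and with the replicate block, which added Mrc1 (1.68, edgeR adjusted p = 0.0458) and changed no other receptor call; the replicate numbers share no stated pairing (correlations of replicate differences between groups -0.08 to 0.16). With the A-rich trend removed the interaction called 0 higher and 2 lower, 1 receptor was lower in untreated knockout cells, and Clec4e differed by -0.00618 with DI in knockout cells.

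Without each library in turn, the receptors lowered in wild-type cells numbered 2 to 4 and those raised in knockout cells 0 to 1; the interaction called 0 to 1 higher and 1 to 2 lower, and 0 to 2 were lower in untreated knockout cells. In the same fits Clec4e ranged from -0.91 to 0.23 with DI in wild-type cells, from -0.21 to 0.33 in knockout cells, from -0.21 to 0.93 in the interaction, and from -0.82 to 0.32 and from -0.18 to 0.47 between genotypes untreated and with DI. Clec4n in knockout cells ranged from -0.0081 to 0.44 and the interaction of Clec4a3 from -0.49 to 0.16. Between untreated genotypes Clec12a ranged from -0.041 to 0.44, Clec4a3 from -0.26 to 0.38, Mrc1 from -0.10 to 0.33 and Clec4a2 from -0.13 to 0.89. With DI, Mgl2 in knockout cells ranged from -1.41 to 0.12 and Fcer1g in wild-type cells from -0.28 to 0.016. The cause was not tested.

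Of the lists, the knockout counts with no filter were 3 rising and 5 falling signalling genes, 2 and 2 other lectin receptors and 5 rising cytokine genes; 2 cytokine genes fell in wild-type cells in a fit of only the groups compared. Over all genes, the 721 higher and 962 lower calls in wild-type cells fell to 290 and 506 at the lowest without 1 library, and the 497 and 443 in knockout cells to 29 and 74 (1029 and 668 with no filter). The interaction gave 549 and 287 (1106 and 491 with no filter; 137 and 101 at the lowest). Untreated genotypes gave 9 and 58 (36 and 155 by DESeq2, 72 and 325 with no filter, 1 and 10 at the lowest), and DI-treated genotypes 1266 and 1079 (654 and 520 at the lowest). With 2 libraries a group, the standard error of the wild-type log2 change with DI was 0.37 for Clec4e and 0.32 for Clec10a. Small changes of these genes could therefore be missed.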
